A study of Homo sapiens with 12 samples.

Results

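The genes described here are the TGF-beta ligands *TGFB1*, *TGFB2* and *TGFB3*, the latency protein gene *LTBP1*, the receptors *TGFBR1*, *TGFBR2* and *TGFBR3*, the inhibitor *SMAD7* and the TGF-beta-induced matrix gene *TGFBI*. They were chosen by name, as 9 of the 45416 genes in the expression table, and all 9 had enough reads to be tested, among 17982 genes. RNA-seq was performed on U251, an established human glioblastoma cell line labelled as wild type, and all results come from this 1 line. Every culture was transfected with an siRNA, so no group is free of transfection: the negative control siNC, or siPDL1-1 or siPDL1-2, which both target *PD-L1* mRNA. At 48 h after transfection, cells were stimulated with 100 U/ml interferon-gamma (IFNγ) for 24 h or left unstimulated. This gave 6 groups of 2 libraries, 12 in all: siNC, siPDL1-1 and siPDL1-2, each unstimulated and with IFNγ. The study asked what silencing *PD-L1* does to the transcriptome of these cells when IFNγ is present.

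TGF-beta is secreted as a latent complex in which the mature ligand stays bound to its own propeptide, and LTBP proteins anchor that complex to the extracellular matrix until integrins or proteases release it. Free ligand is held by the co-receptor TGFBR3 (betaglycan) and signals through TGFBR2, which phosphorylates TGFBR1, which in turn phosphorylates SMAD2 and SMAD3. SMAD7 is induced by the pathway and blocks the receptor, and TGFBI is a secreted matrix protein made in response to it. In glioblastoma the pathway is known for suppressing immune cells and for supporting invasion.

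The stretches upstream of *TGFB2*, *TGFB3* and *TGFBR1* are shown because these were the 3 members that passed both thresholds used below in at least 1 comparison. Each is the 250 bases before 1 RefSeq start on GRCh38.p14, the one at the start of the canonical GENCODE transcript. It is given 5′ to 3′ on the strand of the gene, with motif matches in capitals. RefSeq held 1 start for *TGFB2*, 2 for *TGFB3* and 8 for *TGFBR1*, and matches at other starts of the members are not given. The *TGFB3* and *TGFBR1* stretches lie inside the gene regions given below, which begin further upstream. *TGFB2* lies on the plus strand (chr1:218345086-218345335), *TGFB3* on the minus strand (chr14:75981996-75982245) and *TGFBR1* on the plus strand (chr9:99104863-99105112).
TGFB2: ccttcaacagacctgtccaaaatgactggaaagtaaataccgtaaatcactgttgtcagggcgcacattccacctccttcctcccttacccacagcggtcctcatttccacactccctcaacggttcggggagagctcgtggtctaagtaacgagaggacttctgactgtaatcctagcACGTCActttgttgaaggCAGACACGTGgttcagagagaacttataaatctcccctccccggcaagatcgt
TGFB3: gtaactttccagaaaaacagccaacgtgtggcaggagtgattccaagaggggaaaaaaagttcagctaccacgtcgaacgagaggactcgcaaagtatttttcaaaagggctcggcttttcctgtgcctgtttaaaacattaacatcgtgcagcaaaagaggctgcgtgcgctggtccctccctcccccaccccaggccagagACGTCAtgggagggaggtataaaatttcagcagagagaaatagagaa
TGFBR1: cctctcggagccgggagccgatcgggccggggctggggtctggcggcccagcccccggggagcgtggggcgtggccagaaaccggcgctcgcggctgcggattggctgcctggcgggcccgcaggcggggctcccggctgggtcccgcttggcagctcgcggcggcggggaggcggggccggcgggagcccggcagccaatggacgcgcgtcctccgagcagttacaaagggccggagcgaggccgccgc
Both strands were searched for the IFNγ-activated site (GAS, TTCNNNGAA), the interferon-stimulated response element (ISRE), the SMAD box CAGACA, the core of the cAMP response element (CRE) TGACGT and the E-box CACGTG. *TGFB2* held a CRE core 71 bases before the start, on the opposite strand, and a SMAD box at 53 bases that overlaps an E-box at 49 bases. *TGFB3* held a CRE core 47 bases before the start, also on the opposite strand. The *TGFBR1* stretch, which was 79.6% G and C, held no match. Of the other 6 members, the *LTBP1* stretch held 2 overlapping CRE cores, at 94 and 92 bases before the start. No member held a GAS or an ISRE in this window, where 6.57% and 3.02% of 34788 RefSeq windows of the same length held one. The shares were 7.09% for the CRE core, 6.31% for the E-box and 13.6% for the SMAD box. These matches describe letters only, and binding was not measured.

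The targeted gene was checked first. *PD-L1* (*CD274*), the immune checkpoint ligand, was at 4.60 and 4.91 normalized CPM (read counts scaled to library size) in the siNC libraries, 2.67 and 2.73 with siPDL1-1 and 3.57 and 3.45 with siPDL1-2. With IFNγ it reached 71.2 and 76.0 in siNC, 60.9 and 66.7 with siPDL1-1 and 37.5 and 35.0 with siPDL1-2. It was thus lower than siNC in all 4 pairings of groups without overlap of libraries, but to unequal degrees. The log2 difference was -0.64 with siPDL1-1 and -0.35 with siPDL1-2 in unstimulated cells. After IFNγ it was -0.20 with siPDL1-1, and siPDL1-2 libraries held 36.3 ± 1.76 CPM against 73.6 ± 3.43 CPM in siNC (mean ± SD, FDR = 4.25e-07). In the limma fit the Benjamini-Hochberg false discovery rate (FDR) of the siPDL1-1 difference after IFNγ was 0.0498, so it did not pass FDR < 0.01. Comparisons with siPDL1-1 after IFNγ therefore rest on cells with *PD-L1* mRNA at 0.868 times that of siNC.

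Libraries held 17101069 to 55657393 reads on genes, so 1 read was worth 0.0187 to 0.0586 CPM. Of 12 glioma and astroglial markers, 11 were above 1 CPM, led by *VIM* at 3502 CPM, and *OLIG2* was not. The lowest of the 11 were *S100B*, *GFAP* and *PTPRZ1*, at means of 3.70, 4.38 and 6.46 CPM. None of 8 leukocyte markers was above 1 CPM, the highest mean being 0.322 CPM for *CD14*. Of 6 endothelial markers, *KDR* and *VWF* were above 1 CPM, while *PECAM1* and *CLDN5* were at means of 0.172 and 0.0148 CPM. The endothelial list summed to 9.40 to 13.0 CPM in the 6 unstimulated libraries and to 5.94 to 7.80 CPM in the 6 with IFNγ. The epithelial list, with *KRT8* and *KRT18* above 1 CPM of 5, summed to 125 to 126 CPM in siNC and 111 to 116 CPM with siPDL1-1, and to at most 95.5 and 93.2 CPM in these cells with IFNγ. In siPDL1-2 cells it was at 104 CPM in both libraries without and at 96.3 to 109 CPM with IFNγ, and these overlapped. *SYT1* and *SNAP25* were above 1 CPM of 6 neuron and oligodendrocyte markers, with sums of 3.83 to 5.98 CPM over all libraries. The defining leukocyte genes *PTPRC* and *CD3E* were at means of 0.0955 and 0.00200 CPM. The part of the endothelial and epithelial lists in the IFNγ results below was not tested.

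Per kilobase of the canonical transcript, the matrix product stood far above the signalling genes. Mean CPM per kilobase over 12 libraries was 383 for *TGFBI* and 56.7 for *TGFB1*, the most abundant ligand. *TGFBR2* at 15.2 and *LTBP1* at 14.8 followed, and their ranges over libraries overlapped (13.1 to 18.2 and 11.5 to 19.2). *TGFB2* at 4.45, *TGFB3* at 4.23 and *TGFBR1* at 2.78 came next, with overlapping ranges as well. *SMAD7* at 1.74, with a range of 1.47 to 1.95, lay below every *TGFBR1* value, the lowest of which was 2.03. *TGFBR3* was lowest at 0.928, with a range of 0.579 to 1.35. Isoform use was not resolved, so these levels assume the canonical length of each gene.

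**Figure D1:**
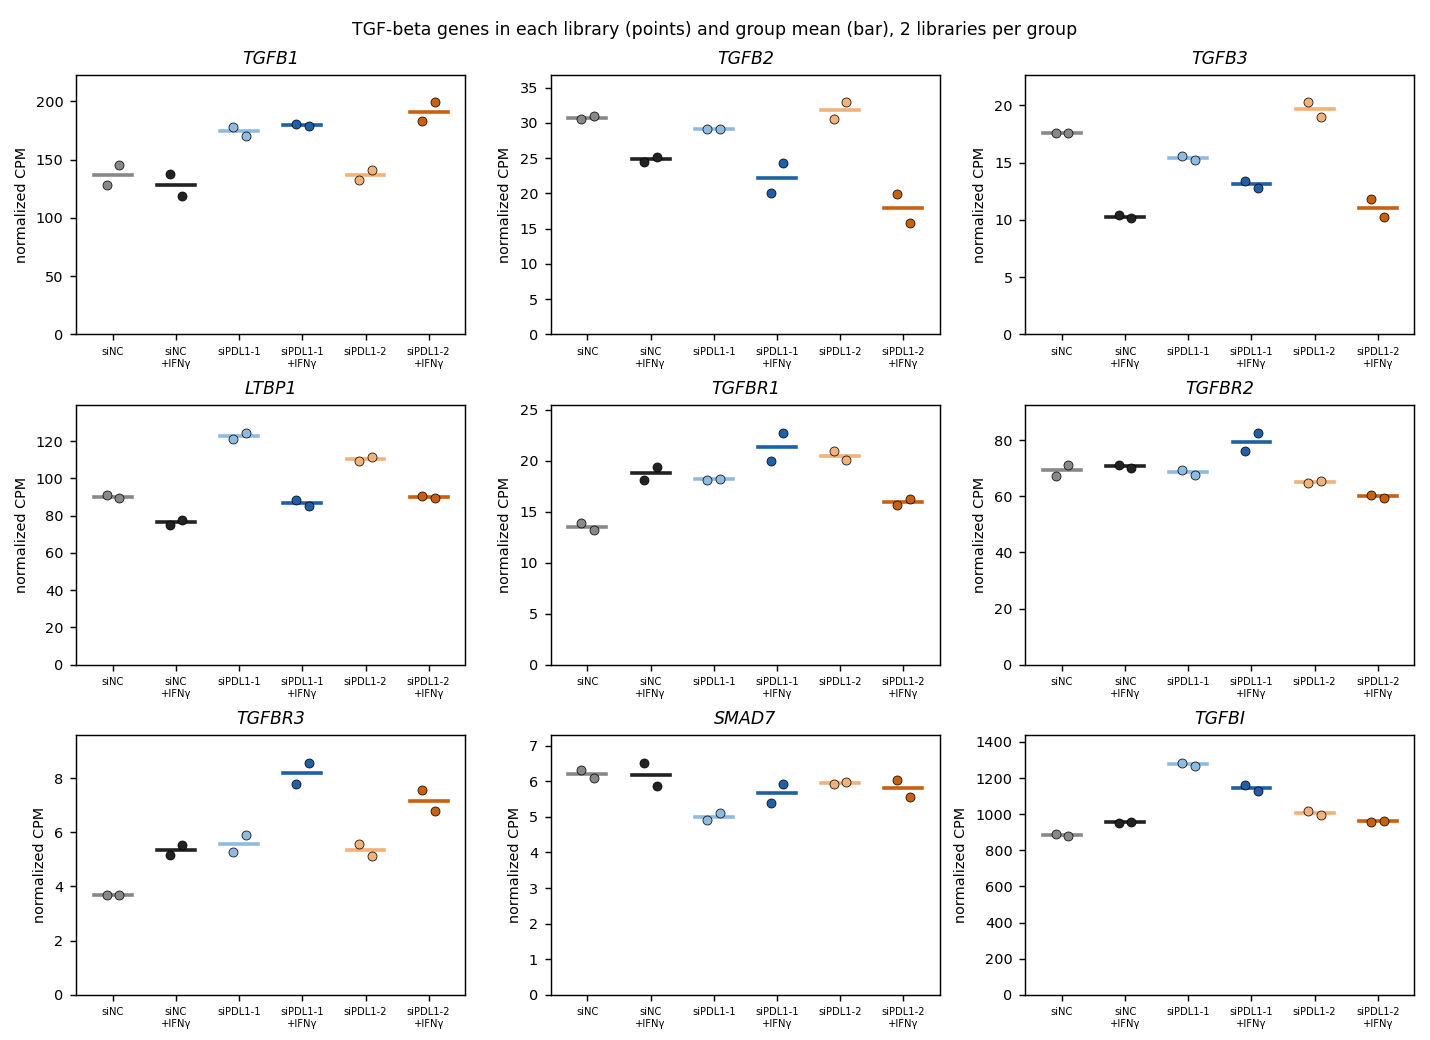
Normalized CPM (vertical axes, linear from 0, a separate scale for each gene) of the 9 TGF-beta genes in the 6 groups (horizontal axes). Points are the 2 libraries of each group and bars their mean. *TGFB2* and *TGFB3* are lower with IFNγ in each siRNA group, while *TGFBI* is highest in the siPDL1-1 libraries, at 1127 to 1285 CPM.

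Results are called at FDR < 0.01 together with a fold change over 1.5, the thresholds of the study, and the words rose and fell are kept for these. FDR < 0.01 alone is given beside them, and this second rule was chosen after seeing the data. All differences are log2 differences of (CPM + 1) from limma, with their standard error (SE), and n = 2 libraries per group throughout. Fold changes are taken from these differences, so they are folds of (CPM + 1) and lie nearer to 1 than folds of CPM.

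IFNγ lowered the ligand *TGFB3*. It was at 17.6 and 17.6 CPM in siNC and at 10.4 and 10.1 CPM in siNC with IFNγ. In siPDL1-1 cells the values were 15.5 and 15.2 CPM without and 13.4 and 12.8 CPM with IFNγ. In siPDL1-2 cells they were 20.2 and 19.0 CPM without and 11.8 and 10.2 CPM with IFNγ. All 6 stimulated libraries lay below all 6 unstimulated ones, with the siPDL1-1 groups closest to each other. In these bulk libraries, fewer cells making a transcript and less of it per cell cannot be told apart. *TGFB3* fell by 0.72 in siNC (SE 0.0786, FDR = 3.84e-06, 0.607-fold) and by 0.78 in siPDL1-2 cells (SE 0.0786, FDR = 2.41e-06, 0.582-fold). In siPDL1-1 cells the difference was -0.22 (FDR = 0.0463) and did not pass. The IFNγ effect differed between siPDL1-1 and siPDL1-2 cells by 0.57 (SE 0.111, FDR = 0.00236), which passed FDR < 0.01 but not the fold threshold. Between siPDL1-1 and siNC it differed by 0.50 (FDR = 0.0198), which did not pass FDR < 0.01 in limma, whereas edgeR on the recovered reads gave 0.59 (FDR = 0.00607). The gene lies on the minus strand of chromosome 14 (75958097 to 75983011, GRCh38), wholly inside *IFT43* on the opposite strand, which was at 24.2 CPM. The reads were counted without regard to strand, so reads from any bases that both genes transcribe cannot be told apart. Whether their exons overlap was not tested.

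*TGFB2*, the ligand first known from glioblastoma as an inhibitor of T cells, was also lower with IFNγ. It was at 30.5 and 30.9 CPM in siNC and at 24.4 and 25.2 CPM with IFNγ. The siPDL1-1 libraries held 29.2 and 29.2 CPM without and 20.1 and 24.3 CPM with IFNγ. The siPDL1-2 libraries held 30.6 and 32.9 CPM without and 19.9 and 15.9 CPM with IFNγ. Every stimulated library was below every unstimulated one, and both siPDL1-2 libraries with IFNγ were below all others. *TGFB2* fell by 0.80 in siPDL1-2 cells (SE 0.0960, FDR = 1.97e-05, 0.573-fold). In siPDL1-1 cells it was lower by 0.38 (FDR = 0.00628), past FDR < 0.01 alone, and in siNC the difference of -0.30 (FDR = 0.0241) did not pass. After IFNγ it was lower with siPDL1-2 than with siNC by 0.46 (SE 0.0960, FDR = 0.00237), under the fold threshold. The difference of the IFNγ effect between siPDL1-2 and siNC cells was -0.51 (FDR = 0.0121, 95% interval -0.80 to -0.21) and did not pass. In unstimulated cells neither siRNA gave a difference past FDR < 0.01, with intervals of -0.28 to 0.13 for siPDL1-1 and -0.16 to 0.25 for siPDL1-2.

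*TGFB1*, the ligand made by most cell types, followed another course. It was at 128 and 145 CPM in siNC and at 137 and 119 CPM in siNC with IFNγ, and these groups overlapped. With siPDL1-1 it was at 178 and 171 CPM without and 181 and 179 CPM with IFNγ. With siPDL1-2 it was at 132 and 141 CPM without and 183 and 199 CPM with IFNγ. The siPDL1-1 libraries and the stimulated siPDL1-2 libraries lay at 171 CPM or above, and the other 6 at 145 CPM or below. After IFNγ the difference from siNC was 0.49 with siPDL1-1 (FDR = 1.74e-04) and 0.58 with siPDL1-2 (SE 0.0721, FDR = 8.09e-05, 1.49-fold). The latter came just short of the fold threshold, and edgeR placed it just past it, at 0.59 (FDR = 2.30e-05). In unstimulated cells the difference was 0.35 with siPDL1-1 (FDR = 0.00256) and 0.00 with siPDL1-2 (FDR = 0.998, 95% interval -0.16 to 0.16). IFNγ itself gave -0.09 in siNC (FDR = 0.340), 0.04 in siPDL1-1 (FDR = 0.705) and 0.48 in siPDL1-2 cells (FDR = 2.82e-04). The IFNγ effect in siPDL1-2 cells differed from that in siNC by 0.57 (SE 0.102, FDR = 0.00126) in limma, under the fold threshold. It was 0.62 in edgeR (FDR = 4.11e-04), past it. *TGFB1* (chromosome 19, 41301587 to 41353922, minus strand) overlaps *HNRNPUL1* (421 CPM) over 6201 bases and *CCDC97* (42.5 CPM), both on the opposite strand, so part of its reads may belong to them.

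*LTBP1*, which tethers latent TGF-beta to the matrix, was lower with IFNγ and higher with either siRNA against *PD-L1*. It was at 91.2 and 89.3 CPM in siNC, 121 and 125 CPM with siPDL1-1 and 110 and 112 CPM with siPDL1-2. With IFNγ these became 75.0 and 77.8, 88.3 and 85.3, and 90.8 and 89.4 CPM. No stimulated group overlapped its unstimulated counterpart, and no siPDL1 group overlapped the siNC group under the same stimulation. The IFNγ difference was -0.24 in siNC (SE 0.0436, FDR = 5.03e-04), -0.50 in siPDL1-1 (FDR = 3.74e-07) and -0.29 in siPDL1-2 cells (FDR = 1.42e-04). The siRNA difference was 0.44 for siPDL1-1 (FDR = 2.92e-06) and 0.29 for siPDL1-2 (FDR = 9.62e-05) in unstimulated cells, and 0.18 (FDR = 0.0043) and 0.24 (FDR = 9.27e-04) after IFNγ. *LTBP1* was the 1 member that passed FDR < 0.01 in all 7 comparisons with siNC or with unstimulated cells. It passed the fold threshold in none of them, and its largest fold change was 0.709. The 7 comparisons share libraries, so they are not independent of each other.

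The signalling receptor *TGFBR1* responded to IFNγ in opposite directions in siNC and siPDL1-2 cells. It was at 13.9 and 13.2 CPM in siNC and at 18.2 and 19.4 CPM in siNC with IFNγ. In siPDL1-2 cells it was at 20.9 and 20.1 CPM without and 15.7 and 16.3 CPM with IFNγ. In siPDL1-1 cells it was at 18.1 and 18.3 CPM without and 19.9 and 22.8 CPM with IFNγ. Unstimulated siNC was thus the lowest of the 6 groups, with both libraries below all others. The IFNγ difference was 0.44 in siNC (SE 0.0753, FDR = 2.55e-04) and -0.34 in siPDL1-2 cells (FDR = 0.00353), and the test of the difference between them gave -0.79 (SE 0.107, FDR = 1.38e-04), past both thresholds. The IFNγ difference of 0.22 in siPDL1-1 cells (FDR = 0.037) did not pass, and it differed from that in siPDL1-2 cells by 0.56 (FDR = 0.00198), under the fold threshold. In unstimulated cells *TGFBR1* was higher by 0.40 with siPDL1-1 (FDR = 9.06e-04) and by 0.57 with siPDL1-2 (SE 0.0753, FDR = 3.43e-05, 1.48-fold). With 0.1 CPM added in place of 1 CPM, this siPDL1-2 difference passed both thresholds. After IFNγ the differences were 0.17 (FDR = 0.0873) and -0.22 (FDR = 0.0376), and neither passed. The gene lies on chromosome 9 (99104038 to 99154192, plus strand) and overlaps no other gene of the table.

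*TGFBR2*, the receptor that binds the ligand first, varied little. Over 12 libraries it ran from 59.5 to 82.7 CPM with a median of 68.5 CPM. The siNC libraries held 67.3 and 71.2 CPM without and 71.1 and 70.1 CPM with IFNγ, and these groups overlapped. The siPDL1-1 libraries held 69.4 and 67.5 CPM without and 76.2 and 82.7 CPM with IFNγ. The siPDL1-2 libraries held 64.7 and 65.6 CPM without and 60.3 and 59.5 CPM with IFNγ. After stimulation the siPDL1-1 libraries were thus the highest of all and the siPDL1-2 libraries the lowest. The siPDL1-1 libraries were higher than the siPDL1-2 libraries by 0.40 after IFNγ (SE 0.0512, FDR = 5.84e-05). The IFNγ effect differed between siPDL1-1 and siPDL1-2 cells by 0.33 (SE 0.0723, FDR = 0.00486), and against siNC siPDL1-2 gave -0.23 after IFNγ (FDR = 0.00301). IFNγ gave 0.03 in siNC (FDR = 0.697), 0.21 in siPDL1-1 (FDR = 0.00505) and -0.12 in siPDL1-2 cells (FDR = 0.0973).

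*TGFBR3*, the co-receptor that presents TGF-beta, was lowest in unstimulated siNC. There it was at 3.67 and 3.69 CPM, against 5.28 and 5.88 CPM with siPDL1-1 and 5.56 and 5.13 CPM with siPDL1-2. With IFNγ it was at 5.17 and 5.52 CPM in siNC, 7.77 and 8.56 CPM with siPDL1-1 and 7.56 and 6.78 CPM with siPDL1-2. Stimulated libraries were above unstimulated ones of the same siRNA, and the siPDL1 groups were above siNC under the same stimulation, without overlap. The IFNγ difference was 0.44 in siNC (FDR = 0.0028), 0.48 in siPDL1-1 (FDR = 0.0017) and 0.36 in siPDL1-2 cells (FDR = 0.0134, not passed). The siPDL1-1 difference was 0.49 without (FDR = 0.00177) and 0.53 after IFNγ (FDR = 7.39e-04), and the siPDL1-2 difference 0.44 (FDR = 0.00274) and 0.36 (FDR = 0.0127, not passed). This is the member with the widest range, 2.33-fold between the highest and lowest library, and at such low levels adding 1 CPM shrinks differences. With 0.1 CPM added instead, the siPDL1-1 difference after IFNγ was 0.60 (FDR = 9.84e-04), past both thresholds, as it was in edgeR (0.61, FDR = 5.61e-04). These values rest on 75 to 276 reads per library.

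*SMAD7*, the feedback inhibitor, passed FDR < 0.01 in none of the 12 comparisons. It was at 6.32 and 6.10 CPM in siNC, 4.90 and 5.11 CPM with siPDL1-1 and 5.92 and 5.98 CPM with siPDL1-2. With IFNγ it was at 6.52 and 5.85, 5.39 and 5.93, and 6.04 and 5.55 CPM. The unstimulated siPDL1-1 libraries were at most 5.11 CPM and all others at least 5.39 CPM. That difference from siNC was -0.26 (FDR = 0.0523, 95% interval -0.47 to -0.06). The IFNγ difference had intervals of -0.21 to 0.20 in siNC, -0.06 to 0.35 in siPDL1-1 and -0.24 to 0.17 in siPDL1-2 cells. These values rest on 103 to 348 reads per library, and differences inside the intervals were not excluded.

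*TGFBI*, the matrix product of the pathway, was higher with siPDL1-1. It was at 888 and 882 CPM in siNC and at 952 and 959 CPM in siNC with IFNγ. With siPDL1-1 it was at 1285 and 1267 CPM without and 1164 and 1127 CPM with IFNγ. With siPDL1-2 it was at 1015 and 993 CPM without and 957 and 964 CPM with IFNγ. The 4 siPDL1-1 libraries lay above the other 8. The siPDL1-1 difference was 0.53 in unstimulated cells (SE 0.0316, FDR = 2.24e-08, 1.44-fold) and 0.26 after IFNγ (FDR = 1.35e-05). With siPDL1-2 it was 0.18 in unstimulated cells (FDR = 3.17e-04) and 0.01 after IFNγ (FDR = 0.895, 95% interval -0.06 to 0.07). IFNγ gave 0.11 in siNC (FDR = 0.0118, not passed), -0.16 in siPDL1-1 (FDR = 0.00138) and -0.06 in siPDL1-2 cells (FDR = 0.143, not passed). Tested directly, the IFNγ effect differed from that in siNC by -0.27 in siPDL1-1 (SE 0.0447, FDR = 0.00266) and by -0.17 in siPDL1-2 cells (FDR = 0.00879). The siPDL1-1 libraries were also higher than the siPDL1-2 libraries, by 0.35 without (FDR = 2.19e-06) and 0.25 after IFNγ (FDR = 4.32e-05). None of these reached the fold threshold.

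**Figure D2:**
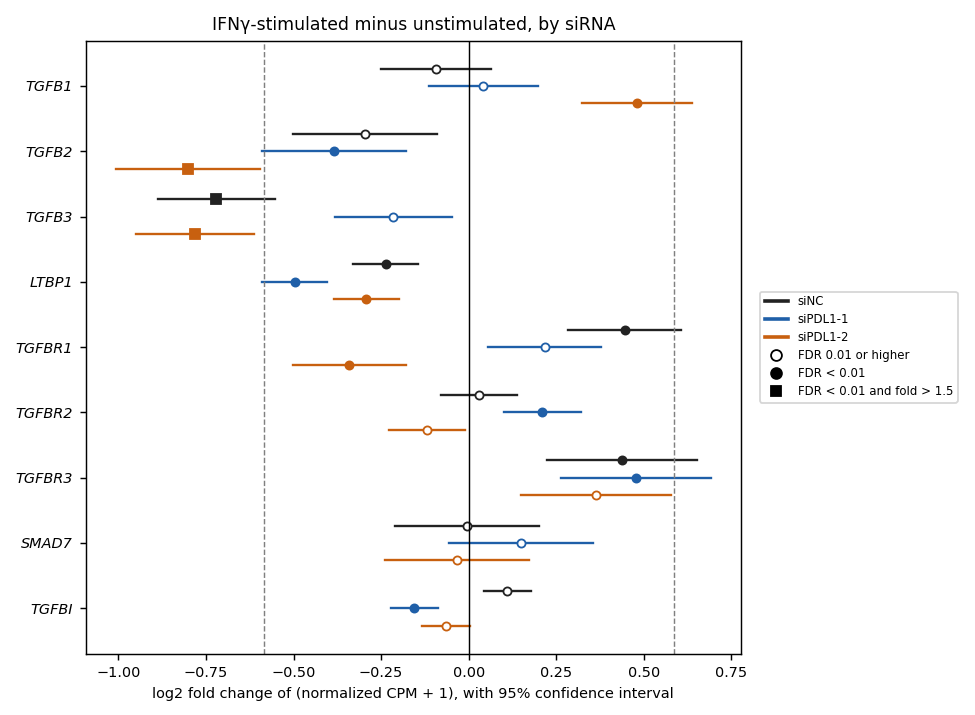
IFNγ-stimulated minus unstimulated log2(normalized CPM + 1) (horizontal axis, linear in log2 units) for the 9 genes, with siNC in black, siPDL1-1 in blue and siPDL1-2 in orange. Points are limma estimates with 95% confidence intervals, open where FDR was 0.01 or higher, filled circles at FDR < 0.01, squares where the fold change also passed 1.5, and dashed lines mark that fold. *TGFB3* in siNC (-0.72) and siPDL1-2 (-0.78) and *TGFB2* in siPDL1-2 cells (-0.80) are the squares.

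Across the 9 members, the count past both thresholds for IFNγ was 1 in siNC (*TGFB3*), where 8.12% of all tested genes passed. It was 0 in siPDL1-1 cells, where 6.87% of all genes passed, and 2 in siPDL1-2 cells (*TGFB2* and *TGFB3*), where 5.27% passed. At FDR < 0.01 alone 4 members passed in siNC (2 higher, 2 lower), where 27.3% of all genes did. In siPDL1-1 cells 5 did (2 higher, 3 lower) against 22.9% of all genes, and in siPDL1-2 cells 5 did (1 higher, 4 lower) against 17.1%. The median member difference was -0.01, 0.04 and -0.12 in siNC, siPDL1-1 and siPDL1-2 cells, where the median of all genes was 0.00, -0.02 and -0.01. The calls were thus decreases of 2 ligands, while the medians stayed near 0. At an unadjusted p under 0.05, 7 members differed in siPDL1-1 cells, where 6089 of all 17982 genes passed even FDR < 0.05. The share of all genes at an unadjusted p under 0.05 was not computed, here or below. In siPDL1-1 cells edgeR and DESeq2 also called 0 members.

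The siRNA effect called no member past both thresholds in limma. In unstimulated cells 0 of 9 passed with siPDL1-1 (4.0% of all genes) and with siPDL1-2 (6.17%). After IFNγ 0 passed with siPDL1-1 (5.47%) and with siPDL1-2 (3.13%). At FDR < 0.01 alone the members that passed were mostly higher. Of all genes that passed it, 1763 were higher and 1616 lower with siPDL1-1 in unstimulated cells, and 2960 and 2147 with siPDL1-2. After IFNγ these numbers were 2082 and 2195 with siPDL1-1, and 1547 and 1753 with siPDL1-2. With siPDL1-1 in unstimulated cells the members that passed were *TGFB1*, *LTBP1*, *TGFBR1*, *TGFBR3* and *TGFBI*, 5 higher and 0 lower, against 18.8% of all genes. With siPDL1-2 they were *LTBP1*, *TGFBR1*, *TGFBR3* and *TGFBI*, 4 higher and 0 lower, against 28.4%. After IFNγ *TGFB1*, *TGFB3*, *LTBP1*, *TGFBR3* and *TGFBI* were higher with siPDL1-1 (5 higher, 0 lower, against 23.8%). With siPDL1-2 *TGFB1* and *LTBP1* were higher and *TGFB2* and *TGFBR2* lower (4 in all, against 18.4%). The 2 siRNAs share the siNC control libraries, so the counts for them are not independent. The median member difference was 0.35 and 0.15 in unstimulated cells with siPDL1-1 and siPDL1-2, and 0.18 and 0.01 after IFNγ. The median over all genes was 0.02 and 0.03 in unstimulated cells and -0.00 and -0.01 after IFNγ. At an unadjusted p under 0.05 the counts were 7, 4, 7 and 6 members in the same order. Of all 17982 genes, 5200, 7338, 6330 and 5510 passed even FDR < 0.05 in that order. By edgeR 1 member was called with each siRNA after IFNγ (*TGFBR3* and *TGFB1*) and 0 in unstimulated cells, while DESeq2 called *TGFBR3* alone.

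**Figure D3:**
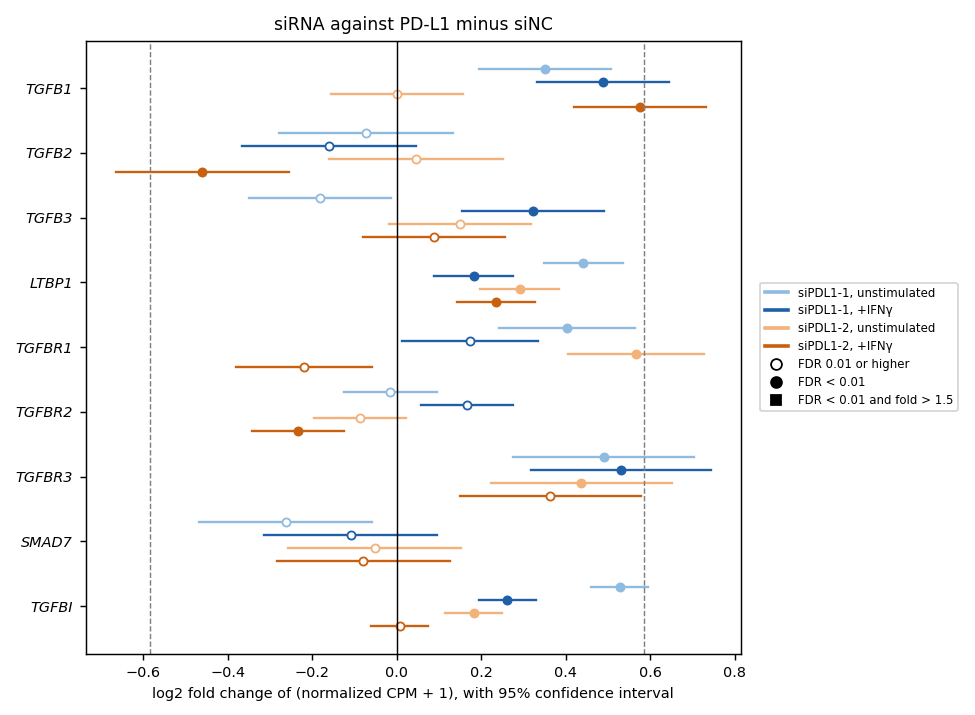
siPDL1 minus siNC log2(normalized CPM + 1) (horizontal axis, linear in log2 units) for the 9 genes, with siPDL1-1 in blue and siPDL1-2 in orange, lighter without and darker with IFNγ. Points are limma estimates with 95% confidence intervals, open where FDR was 0.01 or higher and filled below it, and dashed lines mark a fold change of 1.5. *TGFB1* with siPDL1-2 after IFNγ (0.58) and *TGFBR1* with siPDL1-2 without it (0.57) lie closest to the upper line.

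Set against each other, siPDL1-1 and siPDL1-2 differed past both thresholds in 0 members without IFNγ (4.35% of all genes) and 0 with it (2.23%). At FDR < 0.01 alone *TGFB1* and *TGFBI* were higher and *TGFB3* lower with siPDL1-1 in unstimulated cells, 3 members against 24.1% of all genes. After IFNγ *TGFBR1*, *TGFBR2* and *TGFBI* were higher, 3 members against 10.5%. At an unadjusted p under 0.05, 6 members differed without and 5 with IFNγ, where 6603 and 3453 of all genes passed even FDR < 0.05. In both, edgeR and DESeq2 called 0 members. The difference of the IFNγ effect between siPDL1-1 and siNC cells passed both thresholds in 0 members (0.968% of all genes) and FDR < 0.01 alone in *TGFBI* (1.63%). There 5 members had an unadjusted p under 0.05, and 572 of all genes passed FDR < 0.05. By edgeR 1 member was called, *TGFB3*, and by DESeq2 0. Between siPDL1-2 and siNC cells it passed both in *TGFBR1* (7.62% of all genes) and FDR < 0.01 alone in *TGFB1*, *TGFBR1* and *TGFBI* (17.1%). Between siPDL1-1 and siPDL1-2 cells it passed both in 0 members (4.87%) and FDR < 0.01 alone in *TGFB1*, *TGFB3*, *TGFBR1* and *TGFBR2* (11.7%). Here 6 members had an unadjusted p under 0.05, and 4212 of all genes passed even FDR < 0.05. By edgeR and by DESeq2 1 member was called, *TGFB3*.

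The genes around the members were then counted on 5 lists, with the same thresholds. The counts are to be read against the share of all tested genes that passed, which was 8.12%, 6.87% and 5.27% for IFNγ in siNC, siPDL1-1 and siPDL1-2 cells. For siPDL1-1 and siPDL1-2 it was 4.0% and 6.17% in unstimulated cells and 5.47% and 3.13% after IFNγ. For the difference of the IFNγ effect from that in siNC it was 0.968% and 7.62%. In the same order, with higher first, the genes that passed with IFNγ numbered 1200 and 260, 1003 and 233, and 651 and 296. For the siRNAs they numbered 459 and 261, 870 and 240, 670 and 314, and 346 and 216. For the difference they numbered 160 and 14 with siPDL1-1, but 330 and 1040 with siPDL1-2. Of 15 latency and activation genes 11 were tested. In unstimulated cells 5 of the 11 rose, 0 fell and 6 did not pass with siPDL1-1, where 4.0% of all genes passed. They were led by *FBN1* (fibrillin-1, the microfibril protein to which LTBPs attach), which was at 80.9 and 81.3 CPM in siNC and 182 and 182 CPM with siPDL1-1. Its log2 difference was 1.16 (SE 0.0544, FDR = 2.43e-09). *BGN* (biglycan, a proteoglycan that binds TGF-beta) rose by 0.94 (FDR = 9.99e-07) and *MMP14*, a membrane protease able to release the ligand, by 0.80 (FDR = 6.54e-08). After IFNγ 6 of the 11 rose, 0 fell and 5 did not pass with siPDL1-1, where 5.47% of all genes passed, again with *FBN1* (1.13), *MMP14* (0.89) and *BGN* (0.85). The list's median difference was 0.46 without and 0.68 after IFNγ, against 0.02 and -0.00 for all genes.

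With siPDL1-2, 2 latency and activation genes rose in unstimulated cells, the integrin chains *ITGB8* (1.02, FDR = 3.65e-06) and *ITGAV* (0.67, FDR = 1.45e-06), which together form a receptor that activates latent TGF-beta. *ITGB8* was at 32.0 and 30.0 CPM in siNC and 61.8 and 66.1 CPM with siPDL1-2, and at 30.9 and 31.6 CPM with siPDL1-2 and IFNγ. In these cells IFNγ lowered it by 1.01 on the log2 scale (FDR = 3.91e-06). Its IFNγ effect differed from that in siNC by -1.08 (FDR = 1.40e-04), the direction of *TGFBR1* and of 1040 of the 1370 genes called. *THBS1* (thrombospondin-1, which releases TGF-beta from its propeptide) fell with IFNγ in siNC, from 170 and 172 CPM to 100.2 and 99.1 CPM (-0.77, FDR = 4.15e-10). It also fell in siPDL1-2 cells (-0.96, FDR = 3.14e-11). After IFNγ 1 latency gene, *LTBP3*, rose with siPDL1-2 (0.71, FDR = 1.37e-05).

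All 10 other type I, type II and accessory receptors were tested. Their median difference with IFNγ was 0.25 in siNC, 0.40 in siPDL1-1 and 0.08 in siPDL1-2 cells. With IFNγ in siNC 3 rose and 0 fell: the BMP receptors *BMPR1B* (0.62, FDR = 4.03e-06) and *BMPR1A* (0.61, FDR = 7.13e-06) and the activin and nodal receptor *ACVR1C* (0.75, FDR = 0.00235), the latter at 1.01 CPM or below in all 4 libraries. *BMPR1A* was the 1 that rose in siPDL1-1 cells (0.87, FDR = 1.59e-07). *ENG* (endoglin, a co-receptor) rose with siPDL1-1, by 0.83 without (FDR = 0.00138) and by 1.11 after IFNγ (FDR = 9.66e-05). With siPDL1-2 in unstimulated cells *BMPR2* (0.64, FDR = 1.70e-06) and *BMPR1B* (0.59, FDR = 9.85e-06) rose. Their IFNγ effects in siPDL1-2 cells differed from those in siNC by -0.68 (FDR = 9.05e-05) and -0.77 (FDR = 8.33e-05).

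Of 25 SMADs and regulators, all tested, 4 rose and 1 fell with IFNγ in siNC, with a list median of 0.08. The medians with IFNγ were 0.13 in siPDL1-1 and -0.15 in siPDL1-2 cells. *USP15*, a deubiquitinase that stabilises the receptor, rose from 23.6 and 24.4 CPM to 49.5 and 51.2 CPM (1.04, FDR = 5.08e-09). The corepressor *SKIL* (0.83, FDR = 9.54e-04) and the BMP effector *SMAD5* (0.62, FDR = 2.13e-05) rose as well. *PMEPA1*, a feedback inhibitor like *SMAD7*, fell from 140 and 144 CPM to 81.4 and 73.5 CPM (-0.87, FDR = 3.99e-09), and it fell in siPDL1-1 cells as well (-1.35, FDR = 1.16e-11). In siPDL1-2 cells 0 rose and 3 fell with IFNγ: *LDLRAD4* (-0.80), *SMAD9* (-0.72) and *BAMBI* (-0.61). In unstimulated cells 4 rose and 0 fell with siPDL1-2, among them *SKIL* (1.09, FDR = 1.47e-04), *SMAD5* (0.98, FDR = 5.19e-07) and *LDLRAD4* (0.83, FDR = 6.69e-06). The IFNγ effect in siPDL1-2 cells was lower than in siNC for 6 genes of this list and higher for 0, led by *SKIL* (-1.34, FDR = 8.65e-04) and *SMAD5* (-1.06, FDR = 4.20e-05). Of all genes called for this difference, 1040 were lower and 330 higher.

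Of 36 genes known as TGF-beta targets 33 were tested, and they did not move in 1 direction. With IFNγ in siNC 3 rose, the smooth muscle actin *ACTA2* (1.54, FDR = 5.43e-08), the chromatin protein *HMGA2* (1.05) and the transcription factor *ZEB1* (0.75). There 6 fell, led by the matricellular gene *CCN2* (-1.25, FDR = 2.50e-09), the cytokine *LIF* (-1.01) and the transcription factor *SNAI2* (-0.98). In siPDL1-1 and siPDL1-2 cells 4 rose and 1 fell with IFNγ in each, *ACTA2* (1.75 and 1.56) rising and *SNAI2* (-0.77 and -1.05) falling in both. The IFNγ effect on *CCN2* differed from that in siNC by 1.00 in siPDL1-1 (FDR = 1.65e-05) and 0.92 in siPDL1-2 cells (FDR = 4.26e-05). That on *LIF* differed by 0.97 (FDR = 2.13e-04) and 0.75 (FDR = 5.55e-04). With siPDL1-1 in unstimulated cells 4 rose and 5 fell. The matrix and contractile genes *TAGLN* (0.98), *COL1A2* (0.94) and *FN1* (0.76) were among those that rose. *CCN1* (-0.98) and *CCN2* (-0.97) were among those that fell. With siPDL1-2 in unstimulated cells 1 rose, *ID2* (0.62), and 5 fell, led by *CCN2* (-1.58, FDR = 1.51e-09), *CCN1* (-1.21) and *PTHLH* (-0.96). After IFNγ 6 rose and 1 fell with siPDL1-1, and 1 rose and 3 fell with siPDL1-2. The list's median difference lay between -0.15 and 0.06 in the 7 comparisons of IFNγ within a siRNA group or of a PD-L1 siRNA with siNC.

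Of 23 activins, BMPs and their antagonists 17 were tested. With IFNγ 1 rose and 4 fell in siNC, 1 rose and 3 fell in siPDL1-1 and 2 rose and 2 fell in siPDL1-2 cells, with list medians of -0.03, -0.26 and -0.16. IFNγ lowered *BMP6* in every siRNA group, from 31.7 and 32.2 CPM to 14.1 and 13.1 CPM in siNC (-1.18, FDR = 2.18e-09), and likewise in siPDL1-1 (-1.13) and siPDL1-2 cells (-0.91). The activin antagonist *FST* rose in the 3 siRNA groups, by 0.89, 1.40 and 0.62, from levels of at most 1.01 CPM. The stress-induced cytokine *GDF15* fell in siNC (-1.20, FDR = 1.58e-06). The BMP antagonist *NOG* rose with siPDL1-1 in unstimulated cells (0.80, FDR = 2.22e-04) and with siPDL1-2 after IFNγ (0.88, FDR = 1.30e-04). The endothelial marker sum given above was lower with IFNγ in each siRNA group, and the epithelial sum in siNC and siPDL1-1 but not siPDL1-2 cells, and their part in these lists was not tested.

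**Figure D4:**
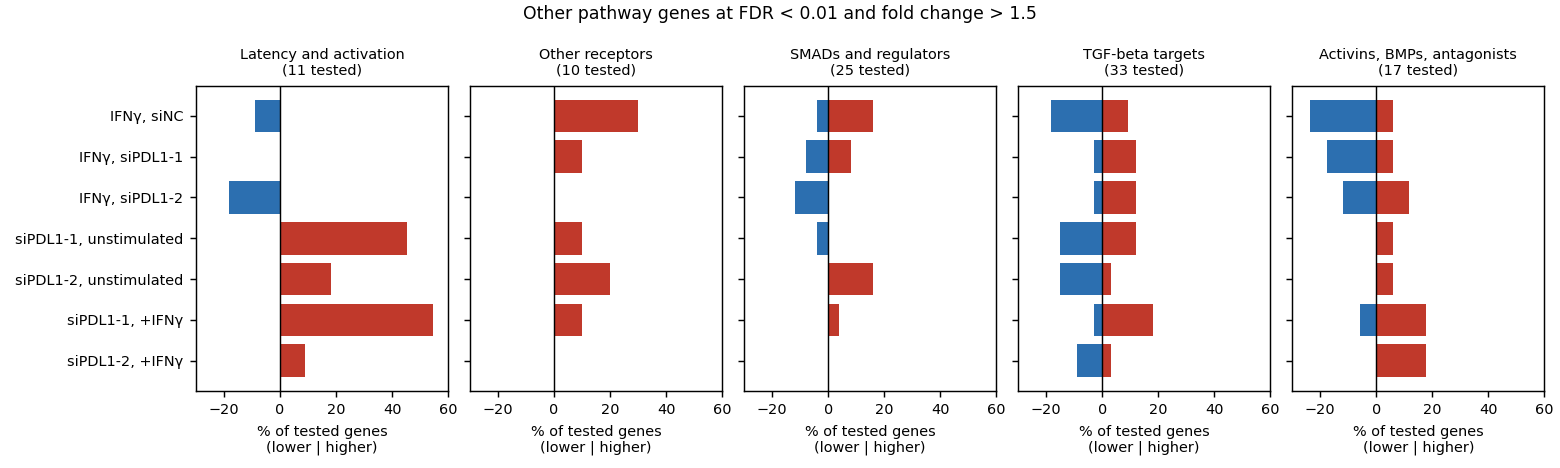
Percentage of tested genes (horizontal axes, linear) that passed FDR < 0.01 and a fold change over 1.5, higher to the right in red and lower to the left in blue, for 5 lists of other pathway genes (panels) and 7 comparisons (vertical axis). Bars for latency and activation genes reach furthest to the right with siPDL1-1, where 5 of 11 genes rose without and 6 of 11 after IFNγ.

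The genes with the pattern most like that of the called members were sought by Pearson's r of log2(CPM + 1) over the 12 libraries, over 14277 tested genes whose average reached 1 CPM. The libraries share their treatments, so r is a description. *TGFB2* was nearest to *ARHGAP21* (r = 0.975), *ZNF704* (0.956) and *LIPG* (0.943). *TGFB3* was nearest to *OLMALINC* (0.956), *PACSIN2* (0.953) and *AC019117.1* (0.953). *TGFBR1* was nearest to the integrin chain gene *ITGB1* (0.966), *PIGC* (0.947) and *NAIP* (0.947).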

How the data were processed

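Poly(A) RNA-seq of U251 cells was analysed in 12 libraries, grouped by the labels, which do not say which culture a replicate number marks. The methods of the study describe a pair of independent experiments. The limma p-values rest on the spread between the 2 libraries of a group, pooled over the 6 groups and moderated across genes. Per the methods and the file headers, the authors mapped reads to GRCh38 (Ensembl) in CLC Genomics Workbench 22.0.2, ignored broken pairs and counted on both strands. The deposited signal values are the authors' normalized CPM, scaled by library factors equal to those of TMM. In each library 100% of values were whole multiples of 1 read, within 2% of a read, so whole reads were recovered for the count-based alternatives.

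Genes were kept by filterByExpr (edgeR 4.0.16, minimum count 10, minimum total 15) and tested with limma 3.58.1 (trend and robust) on log2(CPM + 1), which understates changes of low genes, over all 12 libraries as 6 groups, with Benjamini-Hochberg adjustment over 17982 genes. Alternatives were edgeR and DESeq2 1.42.0 on the reads, which called 163 to 1746 and 162 to 1531 genes over the 12 comparisons against 174 to 1460 in limma, a pseudocount of 0.1, no filter, plain CPM, a replicate block, fewer libraries and other thresholds. Tested on simulated data of the siNC comparison with IFNγ (17547 genes), limma recovered 197 of 200 genes planted at a log2 change of 1.5, with 0 other calls. The simulation gave every gene the same fixed dispersion, and no smaller change was planted. It therefore does not show how often changes near the fold threshold, or in replicates as variable as these, are recovered. Replicates were not copies: their mean chi-square per gene was 1.85 to 7.76, where a copy gives 0.

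The members, the 5 pathway lists and the marker lists were chosen with earlier results of these data known. All members are described, with at most the 3 largest increases and decreases past both thresholds per list and comparison, and the 3 nearest patterns of each called member. The values of 1 listed target gene are not reported here. Gene positions are those of the deposited table (GRCh38). Transcript lengths came from GENCODE release 44 and upstream sequences from RefSeq on GRCh38.p14, where all 9 members matched.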

Additional observations from a re-analysis of the deposited data

Results flagged for a closer look

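Of 27 tests of a difference in the IFNγ effect between siRNA groups, 8 passed FDR < 0.01 in limma, by the interaction term. These were 1 of 9 members for siPDL1-1 against siNC (1.63% of all genes) and 3 for siPDL1-2 against siNC (17.1%). Between siPDL1-1 and siPDL1-2 they were 4 (11.7%). Of all genes past FDR < 0.01, 225, 927 and 1547 were higher and 68, 2140 and 550 lower, in that order. Against siNC, the effect on *TGFBR1* differed in siPDL1-2 cells by -0.79 (SE 0.107, FDR = 1.38e-04), the 1 difference that also passed the fold threshold, with a positive IFNγ difference in siNC and a negative one in siPDL1-2 cells. The effect on *TGFB1* in siPDL1-2 cells differed from siNC by 0.57 (FDR = 0.00126). The effect on *TGFBI* differed from siNC by -0.27 in siPDL1-1 (FDR = 0.00266) and by -0.17 in siPDL1-2 cells (FDR = 0.00879). Between siPDL1-1 and siPDL1-2 cells, the effect differed by -0.44 for *TGFB1* (FDR = 0.00834), 0.57 for *TGFB3* (FDR = 0.00236), 0.56 for *TGFBR1* (FDR = 0.00198) and 0.33 for *TGFBR2* (FDR = 0.00486). The comparisons share libraries, so these values are not independent of each other.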

How the results depend on the processing

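The 4 member results past both thresholds (*TGFB3* with IFNγ in siNC and in siPDL1-2 cells, *TGFB2* with IFNγ in siPDL1-2 cells, *TGFBR1* for the IFNγ difference of siPDL1-2 against siNC) stayed past them under each alternative with the same thresholds except no filter. Over the alternatives the highest FDR was 0.0304, 0.0332, 0.0637 and 0.179 in that order, each without the filter. That fit held all 45416 genes, 15598 of them with no read, called 2 to 494 genes per comparison, and left 0 members for IFNγ in siNC, for IFNγ in siPDL1-2 and for the siPDL1-2 difference. The cause was not tested. Of 104 member results not called, 94 were never called. No called value changed sign.

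A pseudocount of 0.1 gave 1 member for siPDL1-2 without IFNγ (*TGFBR1*), 1 for siPDL1-1 after IFNγ (*TGFBR3*) and 1 for the IFNγ difference of siPDL1-1 against siPDL1-2 (*TGFB3*). edgeR gave 1 for siPDL1-1 after IFNγ (*TGFBR3*), 1 for siPDL1-2 after IFNγ (*TGFB1*), 1 and 2 for the IFNγ difference of siPDL1-1 (*TGFB3*) and siPDL1-2 (*TGFBR1*, *TGFB1*) against siNC, and 1 between the siRNAs (*TGFB3*). DESeq2 gave 1 for siPDL1-1 after IFNγ. For the IFNγ difference it gave 2 for siPDL1-2 against siNC and 1 between the siRNAs, all with the same genes as edgeR. Plain CPM gave 1 for siPDL1-2 after IFNγ (*TGFB1*) and 2 for the siPDL1-2 difference (*TGFBR1*, *TGFB1*).

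With no fold threshold, the counts in order of IFNγ in siNC, siPDL1-1 and siPDL1-2, siPDL1-1 and siPDL1-2 without IFNγ, siPDL1-1 and siPDL1-2 after it, the siRNAs against each other without and after it, and the 3 differences were 4, 5, 5, 5, 4, 5, 4, 3, 3, 1, 3 and 4 at FDR < 0.01. They were 6, 7, 6, 5, 4, 6, 6, 4, 5, 3, 4 and 6 at FDR < 0.05. In the same order, 27.3%, 22.9%, 17.1%, 18.8%, 28.4%, 23.8%, 18.4%, 24.1%, 10.5%, 1.63%, 17.1% and 11.7% of all genes passed FDR < 0.01. Those past FDR < 0.05 numbered 6895, 6089, 5201, 5200, 7338, 6330, 5510, 6603, 3453, 572, 5316 and 4212 of 17982.

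Leaving out 1 library, whose partner was then assumed to vary like the other groups, kept the counts for IFNγ at 1 to 1 in siNC, 0 to 0 in siPDL1-1 and 2 to 2 in siPDL1-2 cells. The count for siPDL1-2 without IFNγ ranged from 0 to 1, with *TGFBR1* called without replicate 1 of siNC or replicate 2 of siPDL1-2. For siPDL1-1 after IFNγ it ranged from 0 to 1 (*TGFB1* without replicate 1 of siNC with IFNγ, *TGFBR3* without replicate 1 of siPDL1-1 with IFNγ). For siPDL1-2 after IFNγ it ranged from 0 to 2 (1, *TGFB1*, without replicate 1 of siNC with IFNγ, and 2, *TGFB1* and *TGFB2*, without replicate 1 of siPDL1-2 with IFNγ). For the siPDL1-2 difference it ranged from 1 to 3. There *TGFB1* was added without unstimulated siNC replicate 1, stimulated siNC replicate 1 or unstimulated siPDL1-2 replicate 2, and *TGFB1* and *TGFB2* without stimulated siPDL1-2 replicate 1. Between the siRNAs it ranged from 0 to 2: *TGFBR1* without either stimulated siPDL1-1 replicate 1 or stimulated siPDL1-2 replicate 2, *TGFB3* without stimulated siPDL1-1 replicate 2 or stimulated siPDL1-2 replicate 1, and both without unstimulated siPDL1-2 replicate 2. For siPDL1-1 without IFNγ, the siRNAs against each other, and the siPDL1-1 difference it stayed at 0. The count of all genes moved by over 1.5 times for the difference between the siRNAs, to 1396 without stimulated siPDL1-1 replicate 1, 572 without unstimulated siPDL1-1 replicate 1, 545 without stimulated siPDL1-2 replicate 2 and 560 without unstimulated siPDL1-2 replicate 2, from 876. For the siPDL1-2 difference it moved to 890 without stimulated siPDL1-2 replicate 2, from 1370.

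With the replicate number as a block, the member counts were 1, 0, 2, 0, 0, 0, 0, 0, 0, 0, 1 and 0 in the order above, and no call changed. Over 15 pairs of groups, the deviations of same-numbered libraries had correlations of -0.187 to 0.252, 2 of them over 0.1 and 2 under -0.1. With 2 libraries per group, these values cannot tell whether same-numbered libraries come from the same experiment. Fits on the 6 stimulated or the 6 unstimulated libraries alone also gave 0 for each siRNA comparison.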
